A study of Homo sapiens with 42 samples.

Results

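The ZNF genes are the human genes whose approved symbol is ZNF followed by a number, and most of them encode zinc finger proteins that bind DNA. They were read here in MiaPaCa-2 and PANC-1, established human pancreatic carcinoma lines from ATCC, after exposure to statins at a low or a high dose. Members were the genes whose symbol in the deposited table was ZNF, digits and at most 1 further letter, with at least 1 FPKM (fragments mapped to a transcript, scaled by its length and by all mapped fragments) in 3 or more libraries. The rule took 169 of the 8738 genes in the table, and every gene with such a symbol met the level requirement. Another 3 symbols that start with ZNF (ZNFX1, ZNF259P1 and ZNF37BP) did not have this form and were left out.

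The 14 groups were untreated control cells, cells given fluvastatin, lovastatin or simvastatin at 2 µM, and cells given the same statins at 20 µM, in each line. Cells were grown in DMEM with 10% fetal bovine serum and used at passages 12 to 15. No genotype or further treatment is labelled, and the sources used here state neither how long the exposure lasted nor the vehicle. RNA was selected on poly-T beads and sequenced as 150 base paired ends. The table has 3 columns per group, 42 in all, but 1 MiaPaCa-2 control column and 1 MiaPaCa-2 lovastatin 20 µM column are exact weighted sums of other columns. They were left out, so those groups have n = 2, the others n = 3, and 40 libraries remain. Nothing in the labels says that replicates came from separate cultures, so a p-value reflects the spread among these libraries alone, part of which may be technical.

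Statins block HMG-CoA reductase, the enzyme that makes mevalonate, and so lower the supply of cholesterol and of the isoprenoids that anchor small GTPases to membranes. Fluvastatin is a fully synthetic statin, whereas lovastatin and simvastatin are lactone prodrugs derived from a fungal product, and simvastatin has 1 more methyl group on its side-chain ester. Zinc fingers of the C2H2 kind are short folds, held by a zinc ion, that read a few bases each, and a string of them reads a longer site. The largest ZNF subfamily also carries a KRAB domain, which recruits the corepressor TRIM28 (KAP1), and through it the histone methyltransferase SETDB1 and heterochromatin proteins. Many KRAB ZNF proteins silence retroelements, many lie in clusters on chromosome 19, and other ZNF proteins act in transcription, splicing, ribosome assembly or mitosis.

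Among the 169 members, 166 are protein coding in GENCODE 29 (GRCh38) and 3 are pseudogenes (ZNF137P, ZNF807 and ZNF826P). A KRAB match was found in the translated coding sequence of 91 members, with a median of 11 C2H2 fingers, and not in 78, with a median of 5 fingers. The chromosome with the most members was 19, with 63 (44 of them with a KRAB match), followed by chromosome 7 with 17 (13 with a match). Many ZNF genes are related in sequence, which can misplace reads: 18 members shared over 10% of their 100-base transcript windows with another gene, and the exons of 55 members overlap a gene on the opposite strand. The sources used here do not say whether counting used strand, so reads of such overlapping genes cannot be told apart.

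The ZNF genes were expressed at low levels. Their mean over the libraries had a median of 6.51 FPKM, with a range of 1.12 to 132, against a median of 22 FPKM for all genes of the table. A mean of 10 FPKM or more was reached by 54 members (32.0%) and by 71.5% of all genes. Members with a KRAB match were lower, with a median of 4.84 FPKM and 15 of 91 (16.5%) at 10 FPKM or more, than those without, with 9.88 FPKM and 39 of 78 (50.0%). The members with the highest means were ZNF207, ZNF90, ZNF664, ZNF146 and ZNF706. The table gives FPKM and no counts, so the sequencing depth behind these values is unknown.

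Some libraries stood apart from their replicates. PANC-1 control replicate 3 correlated with its replicates at r = 0.966 over all genes, while those libraries correlated with each other at 0.988. All 40 genes that were high in MiaPaCa-2 (a median of 10 FPKM or more) and nearly silent in PANC-1 (under 0.2 FPKM) reached 1 FPKM in this library, with a median of 6.02 FPKM, against 0 to 10 of them in every other PANC-1 library. PANC-1 simvastatin 20 µM replicate 3 correlated with its replicates at r = 0.968, against 0.989 between those libraries. Both stayed in the fits, and the counts without them are given below. By the same thresholds, 63 genes were high in PANC-1 and nearly silent in MiaPaCa-2. In MiaPaCa-2 control replicate 2, 14 of them reached 1 FPKM, against 0 to 10 in every other MiaPaCa-2 library. Their median there was 0.543 FPKM, against 0.0375 to 0.186 FPKM in the others. This library is 1 of the 2 MiaPaCa-2 controls in the fits. The keratins KRT8, KRT18 and KRT19 and the mesenchymal filament VIM were high in both lines, whereas EPCAM, CDH1 and CDH2 had medians of 58.4, 34.9 and 20.6 FPKM in PANC-1 and 0.825, 0.49 and 0.0952 FPKM in MiaPaCa-2. MiaPaCa-2 fluvastatin 2 µM replicates 2 and 3 held EPCAM at 29.3 and 19.3 FPKM, against at most 2.04 in the other MiaPaCa-2 libraries. None of the endothelial, acinar and islet markers are listed in the table, and CD68 was the only leukocyte marker listed. Of the fibroblast markers, COL1A1 had a median of 144 FPKM in PANC-1 and 0.914 in MiaPaCa-2, and COL1A2 of 142 FPKM in MiaPaCa-2 and 0.14 in PANC-1. COL1A2 was at 54.7 and 68 FPKM in the MiaPaCa-2 controls, at 123 to 151 at 2 µM, and at 20 µM at 177 to 216 with fluvastatin and 24.3 to 36.8 with simvastatin. The part of these markers in the results was not tested.

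Each group was compared with the control of its line in limma on log2(FPKM + 1), and a gene was called at a Benjamini-Hochberg adjusted p under 0.05 over all genes tested. In MiaPaCa-2, 165 members and 8534 genes were tested, and in PANC-1 162 members and 8615 genes. Members with 1 FPKM or more in fewer than 3 libraries of a line were not tested there: ZNF365, ZNF695, ZNF826P and ZNF229 in MiaPaCa-2, and ZNF430, ZNF426, ZNF300, ZNF79, ZNF471, ZNF470 and ZNF718 in PANC-1. Within a line the 3 statins share their control libraries, so their counts are given side by side and are not independent. In bulk RNA, fewer cells of a type and less RNA per cell cannot be told apart.

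In MiaPaCa-2, ZNF genes were called higher more often than lower at every dose and statin. With fluvastatin at 2 µM, 31 members were called higher (against 20.9% of all genes) and 22 lower (22.3%). With lovastatin at 2 µM, 37 were higher (21.9%) and 19 lower (23.5%), and with simvastatin 42 were higher (21.7%) and 24 lower (23.8%). The upward shares were near the background and the downward shares were below it. At 20 µM the counts were 53 higher (32.9%) and 26 lower (32.5%) for fluvastatin, and 42 higher (28.8%) and 22 lower (30.1%) for lovastatin. Simvastatin at 20 µM gave the most, 74 of 165 higher (32.2%) and 22 lower (33.1%). The median log2 difference of the members at 20 µM was 0.21, 0.24 and 0.39 for fluvastatin, lovastatin and simvastatin, beside 0.03, 0.01 and 0.01 over all genes. Averaged over the statins, 39 members were higher (23.9%) and 25 lower (27.1%) at 2 µM, and 67 higher (34.1%) and 22 lower (33.7%) at 20 µM. Here and below, counts with 1 library left out are given without the share of all genes in that setting. A fall in such a count is therefore not a result about the members. Without MiaPaCa-2 control replicate 1, the 25 became 12 and the 67 became 43, and without MiaPaCa-2 control replicate 2 the 22 lower at 20 µM became 13. Without control replicate 1, 23 members were higher and 10 lower with lovastatin at 2 µM, the members lower at 2 µM were 10 for fluvastatin and 12 for simvastatin, and those lower with simvastatin at 20 µM were 14. Without control replicate 2, the members lower at 2 µM were 13 for fluvastatin and 13 for simvastatin, and those lower with lovastatin at 20 µM were 14, as they also were without lovastatin 20 µM replicate 2.

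In PANC-1, few ZNF genes were called at 2 µM. By limma, 1 member was higher (2.96%) and 1 lower (0.987%) with fluvastatin, 0 were higher (1.97%) and 1 lower (0.836%) with lovastatin, and 1 was higher (2.69%) and 2 lower (1.28%) with simvastatin. At an unadjusted p under 0.05, lovastatin at 2 µM had 4 members higher and 12 lower. The share of all genes at that threshold is not given, so these 2 counts have no background beside them. At 20 µM, 51 of 162 members were higher (32.5%) and 18 lower (31.0%) with fluvastatin, 24 higher (23.9%) and 16 lower (22.4%) with lovastatin, and 41 higher (29.4%) and 31 lower (30.2%) with simvastatin. As shares of the members, 31.5%, 14.8% and 25.3% were higher and 11.1%, 9.88% and 19.1% lower with fluvastatin, lovastatin and simvastatin, each below that of all genes. The shares higher differed by level of expression. At a mean of 10 FPKM or more they were 40.7%, 16.7% and 35.2%, against 31.9%, 24.4% and 29.7% of all such genes. Under 10 FPKM they were 26.9%, 13.9% and 20.4%, against 34%, 22.7% and 28.6%. Medians of the members at 20 µM were 0.2, 0 and -0.03 on the log2 scale, beside 0.02, 0 and -0.01 over all genes. Averaged over the statins, 0 members were higher (4.34%) and 4 lower (2.00%) at 2 µM, and 41 higher (30.8%) and 20 lower (31.1%) at 20 µM.

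Leaving out both PANC-1 libraries that stood apart, an alternative chosen after seeing the data, left 49 higher (33.1% of all genes in that setting) and 22 lower (31.7%) for fluvastatin at 20 µM, 22 (24.5%) and 16 (23.3%) for lovastatin, and 27 (28.0%) and 33 (27.6%) for simvastatin. The simvastatin count higher thus fell from 41 to 27 of 162, and its members were no longer called higher more often than lower. The share higher was below that of all genes in both settings. At 2 µM the counts without both in PANC-1 were 2 higher (3.81%) and 2 lower (1.58%) for fluvastatin, 1 (2.69%) and 2 (1.69%) for lovastatin, and 3 (4.13%) and 6 (2.40%) for simvastatin.

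**Figure D1:**
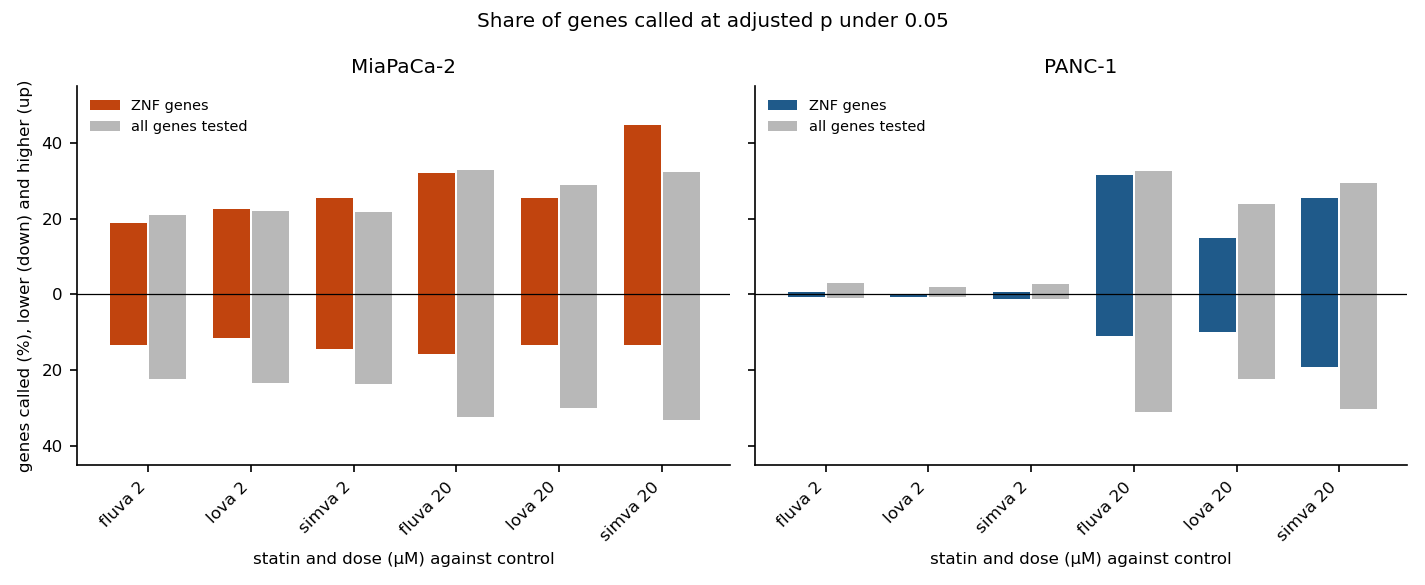
Share of genes called against the control of the same line (y axis, percent, higher drawn upward and lower drawn downward) for each statin and dose in µM (x axis), in MiaPaCa-2 and PANC-1. Coloured bars are the ZNF genes and grey bars all genes tested. The coloured bar below 0 is shorter than the grey one wherever the grey one is over 20%, and the tallest coloured bar is simvastatin 20 µM in MiaPaCa-2, with 74 of 165 members.

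Members with and without a KRAB match were counted apart. With simvastatin at 20 µM in MiaPaCa-2, where 32.2% of all genes were higher and 33.1% lower, 47 of 89 members with a KRAB match were called higher (52.8%) and 10 lower (11.2%), with a median log2 difference of 0.57. Of those without a match, 27 of 76 were higher (35.5%), near the share of all genes, and 12 lower (15.8%), with a median of 0.25. The subsets were closer with the other statins at 20 µM in MiaPaCa-2. With fluvastatin, 32.6% with a match and 31.6% without were higher, and with lovastatin 28.1% and 22.4%. Averaged over the statins, 37 of 89 with a match (41.6%) and 30 of 76 without (39.5%) were higher, against 34.1% of all genes. In MiaPaCa-2 at 2 µM averaged over the statins, 24 members with a match were higher (27.0%) and 7 lower (7.9%), against 15 higher (19.7%) and 18 lower (23.7%) without one, and 23.9% higher and 27.1% lower of all genes. In PANC-1 at 20 µM averaged over the statins, 21 of 85 with a match were higher (24.7%) and 9 lower (10.6%), and 20 of 77 without one were higher (26.0%) and 11 lower (14.3%), each below the 30.8% higher and 31.1% lower of all genes. These are counts and medians, with no test of the difference between the subsets. For simvastatin at 20 µM in MiaPaCa-2, the share called higher stood above that of all genes at both levels of expression. Of the members under a mean of 10 FPKM, 46 of 111 (41.4%) were higher, against 29.7% of all such genes, and of those at 10 FPKM or more 28 of 54 (51.9%), against 33.1%.

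**Figure D2:**
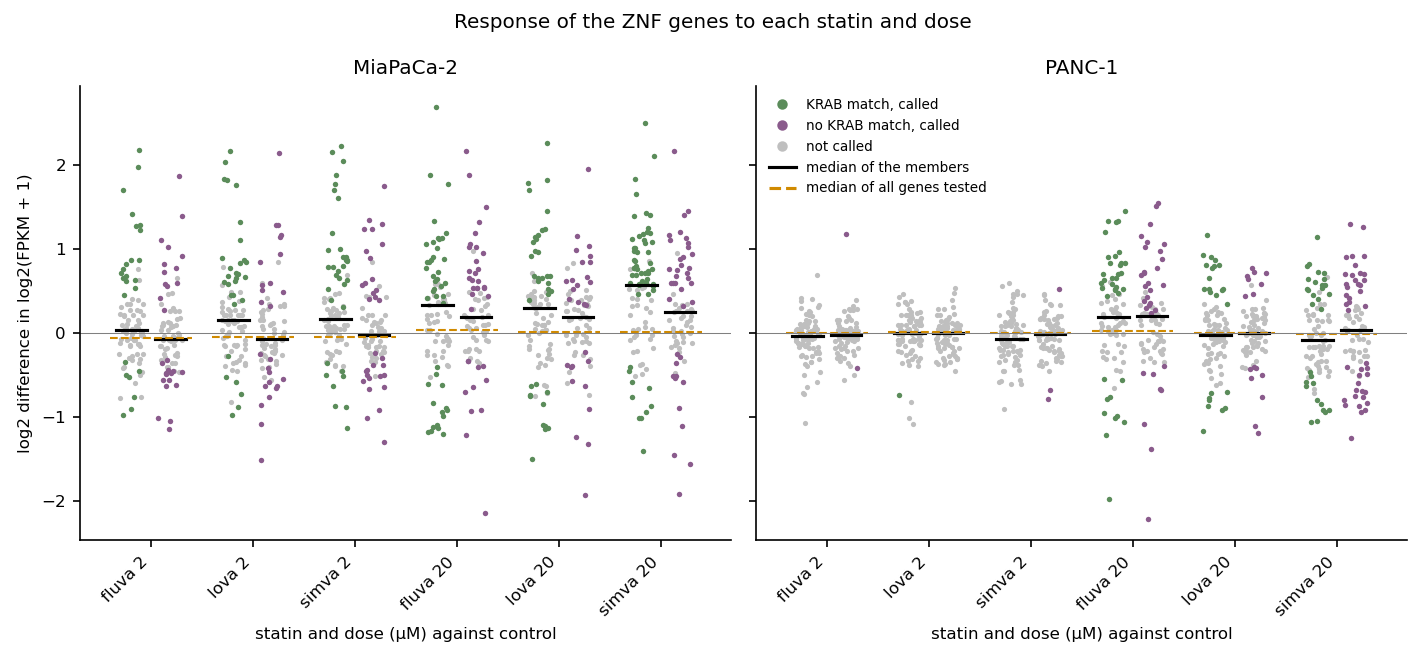
Log2 difference from the control of the same line (y axis, log2(FPKM + 1) scale) for every ZNF gene tested, by statin and dose in µM (x axis), with KRAB-matched members in the left column of each pair and the others in the right. Coloured points passed an adjusted p under 0.05, grey points did not, black bars are medians of the members and dashed bars medians of all genes. Most PANC-1 points at 2 µM are grey, and the highest black bar is that of KRAB-matched members under simvastatin 20 µM in MiaPaCa-2, at 0.57.

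The members named at each line and dose were those with the largest mean changes among members called the same way for all 3 statins. In MiaPaCa-2 at 2 µM, ZNF160, ZNF404, ZNF395, ZNF528, ZNF470 and ZNF577 led the increases. All but ZNF395 carry a KRAB match and lie on chromosome 19.

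ZNF160, a KRAB zinc finger protein with 20 fingers, was at 5.85 and 5.4 FPKM in the MiaPaCa-2 controls. At 2 µM it was at 30, 27.1 and 30.2 FPKM with fluvastatin, 27.5, 29.5 and 29.5 with lovastatin, and 29.8, 28 and 32.9 with simvastatin. At 20 µM it was at 11.6, 9.29 and 10.1 FPKM with fluvastatin, 12.6 and 13.6 with lovastatin, and 15.3, 16.5 and 12.6 with simvastatin. The control, low-dose and high-dose libraries did not overlap, and the low dose was the highest. ZNF160 rose by 2.20 (SE 0.11, 95% interval 1.97 to 2.42, adjusted p = 8.39e-11) at 2 µM and by 1.03 (adjusted p = 3.65e-07) at 20 µM, as log2 differences averaged over the statins. The statins did not differ detectably at 2 µM: fluvastatin against lovastatin gave 0.01 (interval -0.22 to 0.25), fluvastatin against simvastatin -0.05 (-0.29 to 0.18), and simvastatin against lovastatin 0.06 (-0.17 to 0.30). In PANC-1, ZNF160 lay between 9.4 and 14.7 FPKM in the controls and between 12.5 and 15.2 at 2 µM, which overlap, and its difference of 0.30 (interval 0.07 to 0.54, adjusted p = 0.122) did not pass the test.

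ZNF404 had the same order of doses. It was at 3.48 and 4.54 FPKM in the MiaPaCa-2 controls, at 15.2 to 23.2 FPKM in the 9 low-dose libraries, and at 1.82 to 8.85 FPKM in the 8 high-dose libraries. Only the low-dose libraries stood clear of the control. ZNF404 rose by 1.96 (SE 0.2, adjusted p = 7.82e-07) at 2 µM, and its 0.20 at 20 µM (adjusted p = 0.405) did not pass. It shares 14.7% of its windows with an unnamed overlapping gene, AC006213.2.

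ZNF395, a transcription factor induced under hypoxia, was at 16.9 and 19.5 FPKM in the MiaPaCa-2 controls. It was at 62.2, 66.9 and 79.9 FPKM with fluvastatin, 72.9, 87.2 and 92.9 with lovastatin, and 63.9, 62.3 and 64.3 with simvastatin at 2 µM. The 20 µM libraries were at 39.3, 31.1 and 31.9 FPKM with fluvastatin, 22.3 and 22.3 with lovastatin, and 18, 19.6 and 19.7 with simvastatin. Every low-dose library was above every other MiaPaCa-2 library, and at 20 µM the simvastatin libraries overlapped the controls. The rise was 1.92 (SE 0.11, adjusted p = 6.92e-10) at 2 µM. At 20 µM it was 0.40 (adjusted p = 0.00402), and 0.31 (adjusted p = 0.0886) without MiaPaCa-2 control replicate 1. At 20 µM, fluvastatin was above simvastatin by 0.80 (adjusted p = 1.93e-05) and above lovastatin by 0.58 (adjusted p = 0.00323). ZNF395 shares 31.6% of its windows with its overlapping neighbour FBXO16, so part of the value could come from that gene, which was not tested.

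ZNF528 was at 3.61 and 1.8 FPKM in the MiaPaCa-2 controls, at 6.24 to 17.4 FPKM in the low-dose libraries and at 5.45 to 19.5 FPKM in the high-dose libraries. It was high at both doses, with no overlap with the controls. It rose by 1.73 (SE 0.26, adjusted p = 4.36e-05) at 2 µM and by 1.69 (SE 0.26, adjusted p = 3.24e-05) at 20 µM. ZNF470 rose by 1.67 (SE 0.21, adjusted p = 7.79e-06) at 2 µM, from 2.26 and 1.45 FPKM in the controls to between 4.66 and 11.9 FPKM. ZNF577 rose by 1.62 (SE 0.28, adjusted p = 0.000173), from 2.01 and 2.99 FPKM to between 6.8 and 15.9 FPKM. Neither overlapped its controls at 2 µM.

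The members that fell in MiaPaCa-2 at 2 µM included genes of other functions. ZNF593, whose yeast counterpart Bud20 acts in export of the large ribosomal subunit, was at 10 and 12.9 FPKM in the controls. It was at 5.59, 3.24 and 6.68 FPKM with fluvastatin, 4.29, 3.05 and 2.84 with lovastatin, and 4.43, 3.25 and 4.55 with simvastatin at 2 µM. All low-dose libraries lay below the controls, while the high-dose libraries, at 9.9 to 16.3 FPKM, overlapped them. ZNF593 fell by 1.29 (SE 0.19, adjusted p = 3.93e-05) at 2 µM, and its 0.26 at 20 µM (adjusted p = 0.238) did not pass. ZNF385A, an RNA-binding zinc finger protein, was at 7.32 and 4.83 FPKM in the controls and at 1.76 to 3.1 FPKM in the low-dose libraries. At 20 µM it was at 9.09, 8.71 and 7.42 FPKM with fluvastatin, 8.58 and 11.8 with lovastatin, and 13.9, 11.9 and 16.8 with simvastatin. The low dose was below the control and the high dose above it. ZNF385A fell by 1.08 (SE 0.18, adjusted p = 0.000117) at 2 µM and rose by 0.74 (adjusted p = 0.00199) at 20 µM, where it was 0.48 (adjusted p = 0.0897) without MiaPaCa-2 control replicate 2. ZNF689, ZNF142, ZNF684 and ZNF746 also fell at 2 µM, by 0.98, 0.86, 0.86 and 0.55. Without MiaPaCa-2 control replicate 1, ZNF746 was at -0.39 (adjusted p = 0.0888).

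In MiaPaCa-2 at 20 µM, ZNF33B, ZNF581, ZNF528, ZNF846, ZNF461 and ZNF529 led the increases. ZNF581, which has 4 fingers and no KRAB match, was at 17.7 and 19.6 FPKM in the MiaPaCa-2 controls and at 38.1 to 44.8 FPKM in the low-dose libraries. At 20 µM it was at 88.5, 90.6 and 83.5 FPKM with fluvastatin, 74.1 and 76.5 with lovastatin, and 91.6, 88.6 and 82.5 with simvastatin. The 3 dose levels did not overlap, and the level followed the dose. ZNF581 rose by 1.10 (SE 0.07, adjusted p = 3.99e-09) at 2 µM and by 2.10 (SE 0.07, interval 1.95 to 2.25, adjusted p = 4.69e-13) at 20 µM. Fluvastatin and simvastatin at 20 µM differed by 0.00 (interval -0.16 to 0.16). In PANC-1 it was at 20.6 to 26 FPKM in the controls and 21.1 to 34.2 FPKM at 20 µM, a rise of 0.22 (adjusted p = 0.0266) that became 0.14 (adjusted p = 0.2) without PANC-1 control replicate 2 and 0.23 (adjusted p = 0.0633) without PANC-1 control replicate 1. ZNF581 shares 12.9% of its windows with its neighbour ZNF580, which itself was at 0.09 in MiaPaCa-2 at 20 µM.

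ZNF33B, a KRAB member with 16 fingers, was at 5.44 and 7.14 FPKM in the MiaPaCa-2 controls. It was at 54.7, 32.1 and 55.8 FPKM with fluvastatin, 46.8 and 24.6 with lovastatin, and 32.1, 44 and 45.6 with simvastatin at 20 µM. All high-dose libraries were above the controls, with a wide spread. ZNF33B rose by 2.49 (SE 0.45, interval 1.54 to 3.45, adjusted p = 0.000138). At 2 µM it rose by 1.60 (SE 0.44, adjusted p = 0.0067), with lovastatin libraries at 6.63, 33.8 and 21.3 FPKM, and by 1.43 (adjusted p = 0.0833) without MiaPaCa-2 control replicate 1. ZNF846 rose by 1.40 (SE 0.25, adjusted p = 0.000111) at 20 µM, ZNF461 by 1.24 and ZNF529 by 1.23.

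The members that fell in MiaPaCa-2 at 20 µM were led by ZNF367, described below, and ZNF684, ZNF215, ZNF534, ZNF22 and ZNF326. ZNF684 fell by 1.20 (SE 0.19, adjusted p = 3.23e-05), from 3.66 and 4.99 FPKM in the controls to between 0.716 and 1.83 FPKM. ZNF22 was at 16.2 and 14.8 FPKM in the controls. Its level at 20 µM was 6.64, 8.71 and 7.96 FPKM with fluvastatin, 5.79 and 6.16 with lovastatin, and 7.8, 8.62 and 7.21 with simvastatin. All high-dose libraries were below the controls, and ZNF22 fell by 1.02 (SE 0.11, adjusted p = 1.01e-06). ZNF326, a subunit of the DBIRD complex that links transcript elongation to splicing, was at 32.5 and 32.5 FPKM in the controls, at 12.7, 12.5 and 14.9 with fluvastatin, 14.4 and 10.7 with lovastatin, and 21.5, 26 and 28.6 with simvastatin at 20 µM. It was below the control with every statin and least so with simvastatin. ZNF326 fell by 0.97 (SE 0.13) in MiaPaCa-2 and by 0.49 (SE 0.10, adjusted p = 0.000586) in PANC-1. ZNF215 and ZNF534 fell by 1.10 and 1.09 in MiaPaCa-2.

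**Figure D3:**
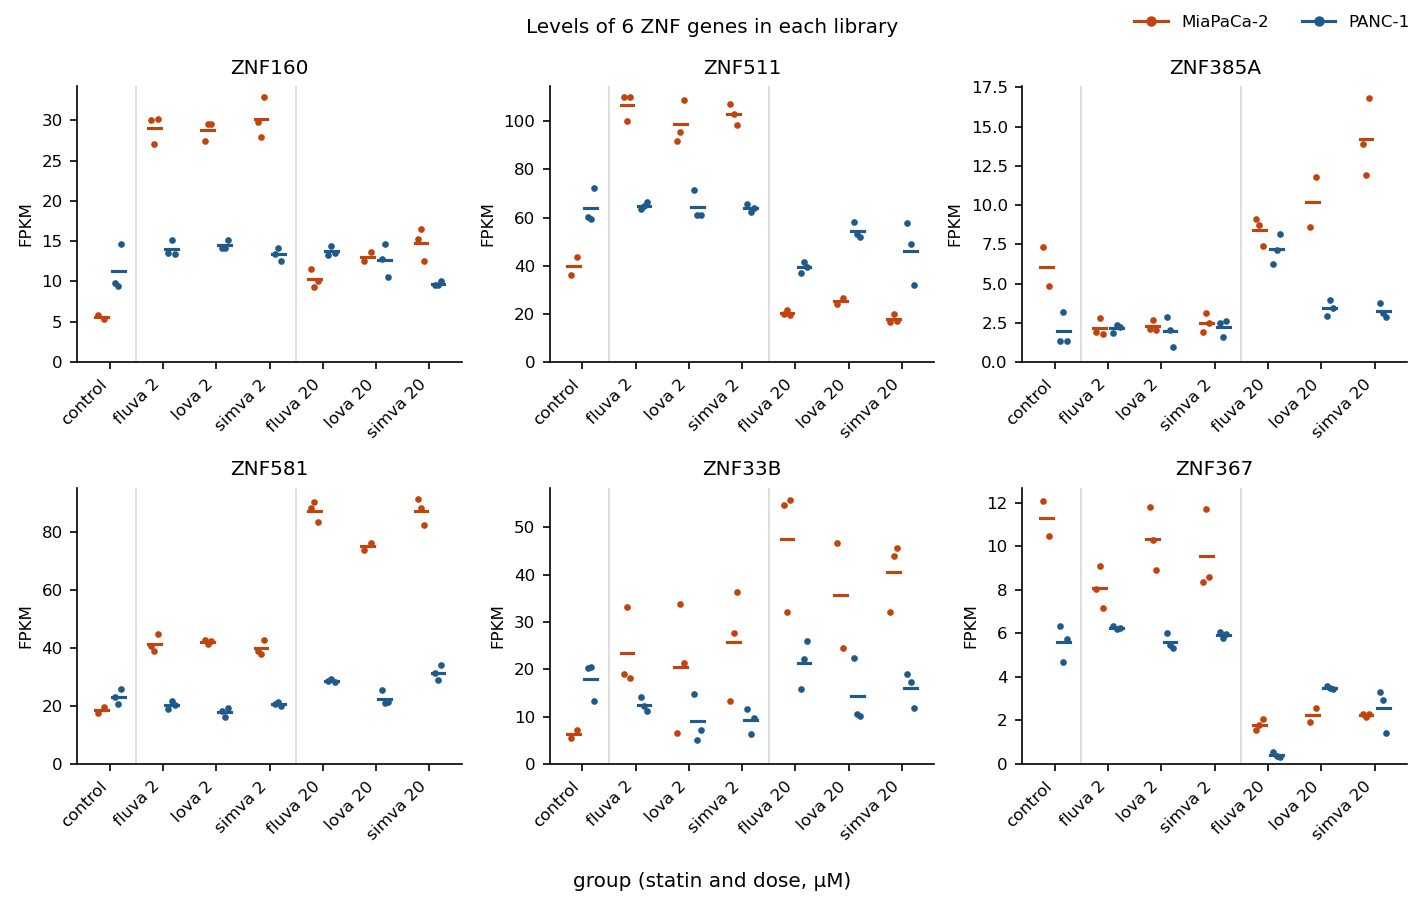
Level (y axis, FPKM, linear) of ZNF160, ZNF511, ZNF385A, ZNF581, ZNF33B and ZNF367 in each group (x axis, statin and dose in µM), MiaPaCa-2 in orange and PANC-1 in blue, with 1 point per library and a bar at the group mean. ZNF160 is highest at 2 µM in MiaPaCa-2 (27.1 to 32.9 FPKM), ZNF581 at 20 µM (74.1 to 91.6 FPKM), and ZNF367 drops in both lines at 20 µM.

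The doses were then set against each other, averaged over the statins. From 2 to 20 µM, 80 members rose (against 41.3% of all genes) and 41 fell (37.2%) in MiaPaCa-2, and 66 rose (36.8%) and 33 fell (37.3%) in PANC-1. ZNF511 had the largest fall in MiaPaCa-2. It was at 36.1 and 43.8 FPKM in the controls, at 91.8 to 110 FPKM in the low-dose libraries and at 16.5 to 26.5 FPKM in the high-dose libraries. The low dose was above the control and the high dose below it, with no overlap. ZNF511 rose by 1.35 (SE 0.09, adjusted p = 6.84e-09) at 2 µM, fell by 0.89 (SE 0.09, adjusted p = 4.03e-07) at 20 µM, and fell by 2.24 (SE 0.06, adjusted p = 3.56e-15) between the doses. In PANC-1 it was at 59.6 to 72.2 FPKM in the controls and at 31.9 to 58.1 FPKM at 20 µM, and it fell by 0.47 (adjusted p = 0.00216), or by 0.30 (adjusted p = 0.00256) without both libraries that stood apart. ZNF511 shares 14.9% of its windows with the readthrough gene ZNF511-PRAP1 and overlaps TUBGCP2 on the other strand.

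The other large dose differences in MiaPaCa-2 were falls of ZNF404 by 1.76 (adjusted p = 1.94e-09) and of ZNF215 by 1.75, and rises of ZNF385A by 1.82 (SE 0.11, adjusted p = 3.07e-10), ZNF593 by 1.55 (SE 0.12) and ZNF862 by 1.31. In PANC-1 the largest rises were those of ZNF554 by 1.16, ZNF516 by 0.93 and ZNF83 by 0.82.

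ZNF695 and ZNF107 had large falls in PANC-1. ZNF695, a KRAB member, was at 4.92, 5.03 and 3.43 FPKM in the PANC-1 controls and at 5.32 to 8.61 FPKM in the low-dose libraries. In the 20 µM libraries it was at 0.17, 0.543 and 0.432 FPKM with fluvastatin, 2.41, 1.82 and 1.6 with lovastatin, and 3.76, 1.7 and 2.73 with simvastatin. The fluvastatin libraries were the lowest, and only 1 simvastatin library reached the control range. ZNF695 fell by 1.15 (adjusted p = 8.72e-06) against the control and by 1.60 (SE 0.12, adjusted p = 6.49e-10) between the doses. It was at the lowest listed value in 17 of 19 MiaPaCa-2 libraries and was not tested there. ZNF107 fell in PANC-1 by 1.02 (SE 0.23, adjusted p = 0.000951).

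In PANC-1 at 20 µM, ZNF277, ZNF83, ZNF385A, ZNF622, ZNF140 and ZNF34 led the increases. ZNF385A rose there by 0.91, from 1.33 to 3.19 FPKM in the controls to 2.89 to 8.15 FPKM, which overlap. ZNF277 was at 8.77, 15.6 and 13.6 FPKM in the controls and at 44.4, 35.1 and 35 FPKM with fluvastatin, 23, 18 and 21.8 with lovastatin, and 33.8, 24.6 and 17 with simvastatin. All high-dose libraries were above the controls, fluvastatin the most. It rose by 1.06 (SE 0.23, adjusted p = 0.000623) in PANC-1 and by 0.83 (adjusted p = 0.00294) in MiaPaCa-2, where it was 0.56 (adjusted p = 0.105) without MiaPaCa-2 control replicate 1. ZNF83 rose by 0.95 (SE 0.16, adjusted p = 6.58e-05) in PANC-1, from 6.17 to 9.46 FPKM in the controls to 9.92 to 21.2 FPKM, and by 1.02 (adjusted p = 9.95e-05) in MiaPaCa-2.

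ZNF622, a relative of yeast Rei1 that acts in maturation of the 60S ribosomal subunit, was at 14.2, 12.2 and 12.8 FPKM in the PANC-1 controls. At the high dose it was at 20.3, 19.4 and 19.4 FPKM with fluvastatin, 21.4, 21.2 and 21.8 with lovastatin, and 25.4, 24.9 and 25.8 with simvastatin. The groups did not overlap. It rose by 0.71 (SE 0.07, adjusted p = 6.77e-08) in PANC-1 and by 0.61 (SE 0.10, adjusted p = 6.81e-05) in MiaPaCa-2, where simvastatin libraries were at 39.5, 40.1 and 38.2 FPKM against 17.1 and 16.8 in the controls. ZNF140 and ZNF34 rose by 0.69 and 0.67 in PANC-1, and ZNF519, ZNF738 and ZNF318 fell by 0.85, 0.78 and 0.64.

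ZNF367 had the largest fall of any member in MiaPaCa-2 at 20 µM and the second in PANC-1, after ZNF488, which fell there by 1.25 (adjusted p = 3.15e-06). ZNF367 has 2 fingers and no KRAB match. It was at 12.1 and 10.5 FPKM in the MiaPaCa-2 controls, at 7.18 to 11.8 FPKM in the low-dose libraries, and at 1.54, 1.77 and 2.05 FPKM with fluvastatin, 1.93 and 2.56 with lovastatin, and 2.3, 2.15 and 2.3 with simvastatin at 20 µM. In PANC-1 it was at 6.34, 4.7 and 5.73 FPKM in the controls, and at 20 µM at 0.549, 0.347 and 0.335 FPKM with fluvastatin, 3.57, 3.49 and 3.43 with lovastatin, and 3.31, 2.93 and 1.43 with simvastatin. Every high-dose library was below every control library of its line, and in PANC-1 fluvastatin was the lowest. ZNF367 fell by 2.00 (SE 0.14, interval -2.29 to -1.70, adjusted p = 3.26e-09) in MiaPaCa-2 and by 1.23 (SE 0.13, adjusted p = 3.01e-07) in PANC-1. In PANC-1, fluvastatin was below lovastatin by a log2 difference of -1.68 (SE 0.16, adjusted p = 3.25e-07) and below simvastatin by -1.30 (adjusted p = 5.85e-06).

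The promoters of the members were searched for letters of the E2F site, which the E2F factors of S-phase genes bind. Promoter windows were available from RefSeq (GRCh38.p14) for 147 members, 250 bases before to 50 after the start. TTTCCCGC or TTTGGCGC, on either strand, occurred in 6 of them (4.1%), against 4.0% of 6266 genes of the table and 2.3% of 35116 promoters. The hypoxia response core ACGTG, on either strand, occurred in 36 (24.5%), against 27.9% and 21.4%. Both shares were close to those of the other genes. The 5 windows whose match lies before the start are shown, 60 bases each on the gene's strand, with the match in capitals. They are shown because ZNF367 is among them, and the match of ZNF708 lies after the start.
ZNF367: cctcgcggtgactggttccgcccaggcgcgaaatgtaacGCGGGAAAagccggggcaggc
ZNF101: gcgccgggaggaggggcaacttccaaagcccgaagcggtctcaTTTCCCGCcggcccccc
ZNF90: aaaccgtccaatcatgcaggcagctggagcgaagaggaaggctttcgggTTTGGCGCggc
ZNF131: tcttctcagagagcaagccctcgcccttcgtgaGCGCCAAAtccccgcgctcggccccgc
ZNF644: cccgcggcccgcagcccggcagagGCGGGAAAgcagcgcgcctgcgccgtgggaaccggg
The windows are chr9:96418371-96418430 on the minus strand for ZNF367, chr19:19668779-19668838 on the plus strand for ZNF101, chr19:20077940-20077999 on the plus strand for ZNF90, chr5:43121361-43121420 on the plus strand for ZNF131, and chr1:91022116-91022175 on the minus strand for ZNF644. The matches begin 21, 17, 11, 67 and 116 bases before the start.

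The members that hold these letters did not move alike. At 20 µM, averaged over the statins, ZNF101 was at -0.39 (adjusted p = 0.0946) in MiaPaCa-2 and -0.51 (adjusted p = 0.0766) in PANC-1, ZNF131 at 0.06 and 0.02, ZNF644 at 0.11 and 0.03, and ZNF708 at -0.23 and 0.14, none called. ZNF90 was called lower in MiaPaCa-2, at -0.40 (adjusted p = 0.0467), a call lost without any 1 of 6 libraries (-0.36, adjusted p = 0.202, without control replicate 1), and higher in PANC-1, at 0.58 (adjusted p = 0.00342), or 0.34 (adjusted p = 0.0606) without PANC-1 control replicate 2. ZNF367 was the only one of the 6 called lower in both lines, but the windows were shown because of it. Whether the letters bear on its fall was not tested.

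Statins were compared with each other at matched doses, with 3 pairs per dose and line and 12 in all, each adjusted over all genes. At 2 µM no member was called by limma in any of the 6 pairs, and the number of members at an unadjusted p under 0.05 was 25, 26 and 16 in MiaPaCa-2 and 10, 16 and 12 in PANC-1, for fluvastatin against lovastatin, fluvastatin against simvastatin, and simvastatin against lovastatin. At the adjusted threshold these pairs called, over all genes, 0, 48 and 25 in MiaPaCa-2 (0%, 0.562% and 0.293%) and 1, 1 and 0 in PANC-1 (0.0116%, 0.0116% and 0%). The share of all genes at the unadjusted threshold is not given, so the member counts at that threshold have no background beside them.

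At 20 µM the statins differed. In MiaPaCa-2, fluvastatin was above lovastatin for 13 members (11.1%) and below for 3 (12.4%), and above simvastatin for 21 (27.8%) and below for 58 (28.4%). Simvastatin was above lovastatin for 37 (17.9%) and below for 16 (19.4%), compounds that differ by the methyl group. Of the 58 members that were lower with fluvastatin than with simvastatin, 36 carry a KRAB match, as do 89 of the 165 members tested. In PANC-1, fluvastatin was above lovastatin for 25 members (13.8%) and below for 5 (16.9%), and above simvastatin for 44 (23.9%) and below for 19 (23.7%). Simvastatin there was above lovastatin for 25 (17.6%) and below for 32 (21.0%). Fluvastatin against simvastatin thus had more members below in MiaPaCa-2 and more above in PANC-1, and the difference in that balance was not tested. Leaving out 1 library moved some of these counts: fluvastatin against lovastatin in MiaPaCa-2 had 9 members either way without fluvastatin 20 µM replicate 3 and 7 without lovastatin 20 µM replicate 2, against 16 (23.5%), and in PANC-1 19 without lovastatin 20 µM replicate 3, against 30 (30.7%). Simvastatin against lovastatin in MiaPaCa-2 had 31 without lovastatin 20 µM replicate 2, against 53 (37.3%).

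ZNF488, a regulator of oligodendrocyte development in mice, was at 8.14 and 7.95 FPKM in the MiaPaCa-2 controls. Its level at 20 µM was 17.6, 15.8 and 15.9 FPKM with fluvastatin, 5.81 and 5.81 with lovastatin, and 2.24, 2.31 and 2.3 with simvastatin. The 3 statins did not overlap, with fluvastatin above the control and the others below it. Fluvastatin was above simvastatin by 2.41 (SE 0.1, adjusted p = 1.31e-11) and above lovastatin by 1.36 (SE 0.11, adjusted p = 3.02e-07), and simvastatin was below lovastatin by a log2 difference of -1.05 (adjusted p = 2.84e-06). In PANC-1 it was at 0.0424 to 0.705 FPKM with the 3 statins at 20 µM, against 1.78, 1.98 and 2.21 in the controls.

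ZNF467, which promotes fat cell formation in mice, was at 3.76 and 3.4 FPKM in the MiaPaCa-2 controls. In the 20 µM libraries it was at 15.7, 14 and 18.2 FPKM with fluvastatin, 6.39 and 10.2 with lovastatin, and 2.38, 2.92 and 1.34 with simvastatin. Fluvastatin was the highest in both lines. Fluvastatin was above simvastatin by 2.42 (SE 0.18, adjusted p = 1.56e-08) in MiaPaCa-2 and by 0.59 (adjusted p = 0.000768) in PANC-1, where its libraries were at 7.88, 6.85 and 8.65 FPKM against 5.05, 4.69 and 4.72. Simvastatin was below lovastatin in MiaPaCa-2, at -1.53 (adjusted p = 2.72e-05), and above it in PANC-1, at 0.47 (adjusted p = 0.00602).

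ZNF608 was also higher with fluvastatin than with simvastatin in MiaPaCa-2, by 1.78 (adjusted p = 3.17e-06). ZNF165, ZNF267 and ZNF562 were lower with fluvastatin than with simvastatin, at -1.51, -1.26 (adjusted p = 4.33e-05) and -1.25. ZNF260 was higher with fluvastatin than with lovastatin by 1.71 (SE 0.49, adjusted p = 0.0179), but its fluvastatin libraries ran from 6.2 to 27.7 FPKM and the call was lost without several single libraries, with the value at 1.29 (adjusted p = 0.186) at its lowest. ZNF674 and ZNF101 were the members with the largest difference of simvastatin over lovastatin. ZNF101 was at 10.8, 11.2 and 9.26 FPKM with simvastatin and at 3.26 and 3.28 with lovastatin, a difference of 1.42 (SE 0.23, adjusted p = 0.000182) with no overlap. ZNF674 differed by 1.80 (SE 0.38, adjusted p = 0.00153).

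In PANC-1, ZNF740 was at 48, 46.9 and 40.9 FPKM with fluvastatin, 26.6, 21.4 and 25.9 with lovastatin, and 16.6, 17.8 and 6.43 with simvastatin, against 25.6, 24.1 and 18.3 in the controls. Fluvastatin stood above and simvastatin below the controls. Fluvastatin was above simvastatin by 1.77 (SE 0.26, adjusted p = 2.78e-05). The simvastatin libraries, from 6.43 to 17.8 FPKM, include the one that stood apart, and the difference without it is not given. ZNF621 was at 14.3, 17.6 and 15.5 FPKM with fluvastatin, 10.4, 11.9 and 12.5 with lovastatin, and 4.35, 4.78 and 4.56 with simvastatin. Fluvastatin was above simvastatin by 1.59 (SE 0.13, adjusted p = 4.12e-08), and simvastatin was below lovastatin, at -1.18 (adjusted p = 3.06e-06). In MiaPaCa-2, ZNF621 rose with simvastatin at 20 µM by 0.76 (adjusted p = 0.00588) over the control.

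**Figure D4:**
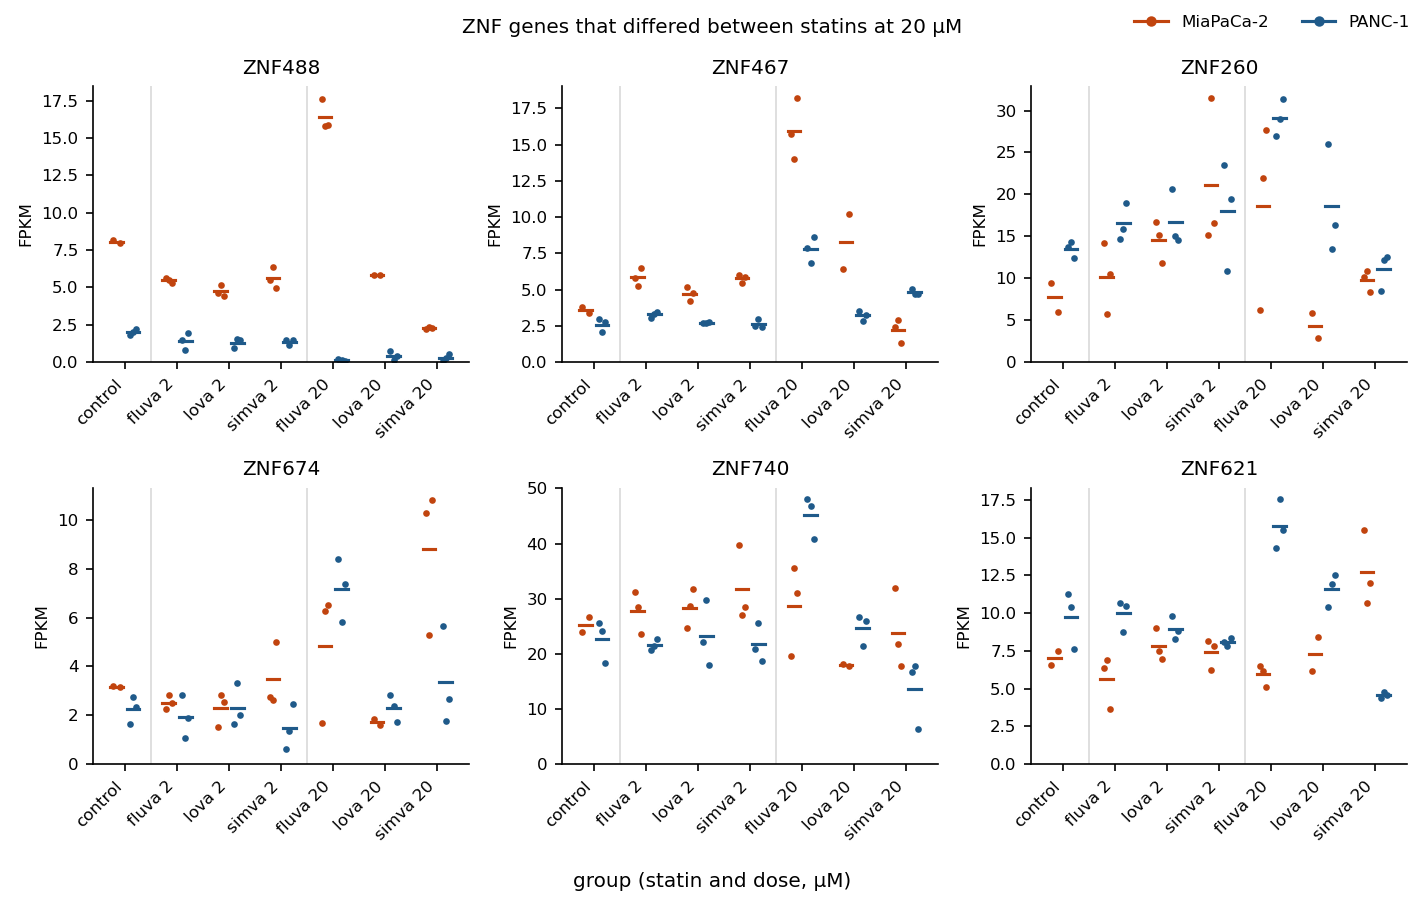
Level (y axis, FPKM, linear) of ZNF488, ZNF467, ZNF260, ZNF674, ZNF740 and ZNF621 in each group (x axis, statin and dose in µM), MiaPaCa-2 in orange and PANC-1 in blue, with 1 point per library and a bar at the group mean. At 20 µM ZNF488 in MiaPaCa-2 steps down from fluvastatin (15.8 to 17.6 FPKM) through lovastatin (5.81) to simvastatin (2.24 to 2.31), and ZNF260 shows a spread within groups as wide as the differences between them.

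The lines were compared by testing the difference between their responses in 1 fit of all 40 libraries. Averaged over the statins, the response was more positive in MiaPaCa-2 for 34 members (19.1%) and more negative for 17 (21.4%) at 2 µM, and for 29 (17.7%) and 15 (19.9%) at 20 µM. The counts in this paragraph cover all 169 members, also those that passed the filter through 1 line alone. For such members a difference mainly reflects the line that expresses them. Of the 158 members tested in both lines, 38 were called either way at 20 µM, and the matching share of all genes is not given. For simvastatin alone at 20 µM the counts were 50 (22.7%) and 13 (23.4%), of which 32 and 4 carry a KRAB match, as do 91 of all 169 members. Without both PANC-1 libraries that stood apart these became 34 (17.8% of all genes in that setting) and 13 (19.4%) at 2 µM. They became 31 (17.9%) and 13 (20.2%) at 20 µM, and 51 (21.8%) and 13 (24.0%) for simvastatin at 20 µM. Without MiaPaCa-2 control replicate 2, the 44 called either way at 20 µM (37.6%) became 25. For lovastatin alone, 42 members differed either way at 2 µM (33.8%) and 41 at 20 µM (32.5%), the first of which became 25 without MiaPaCa-2 control replicate 1. The second became 25 without MiaPaCa-2 control replicate 2 and 24 without MiaPaCa-2 lovastatin 20 µM replicate 2.

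At 2 µM the response of ZNF160 was more positive in MiaPaCa-2 by 1.89 (SE 0.15, adjusted p = 6.87e-11), and that of ZNF511 by 1.33 (SE 0.16, adjusted p = 8.53e-08). At 20 µM that of ZNF581 was more positive by 1.88 (SE 0.11, adjusted p = 3.46e-14), that of ZNF33B by 2.59 (SE 0.53), and that of ZNF296 by 1.47 (SE 0.21, adjusted p = 1.81e-06). ZNF22 was more negative, at -1.07 (SE 0.17, adjusted p = 1.09e-05), with a PANC-1 response of 0.05 (interval -0.21 to 0.31). For ZNF367, which fell in both lines, the fall averaged over the statins was larger in MiaPaCa-2 by a log2 difference of -0.77 (adjusted p = 0.00211). This does not hold for each statin: by the levels given above, the fall with fluvastatin was not larger in MiaPaCa-2 than in PANC-1. At such low levels the size of the difference also depends on the offset of 1.

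**Figure D5:**
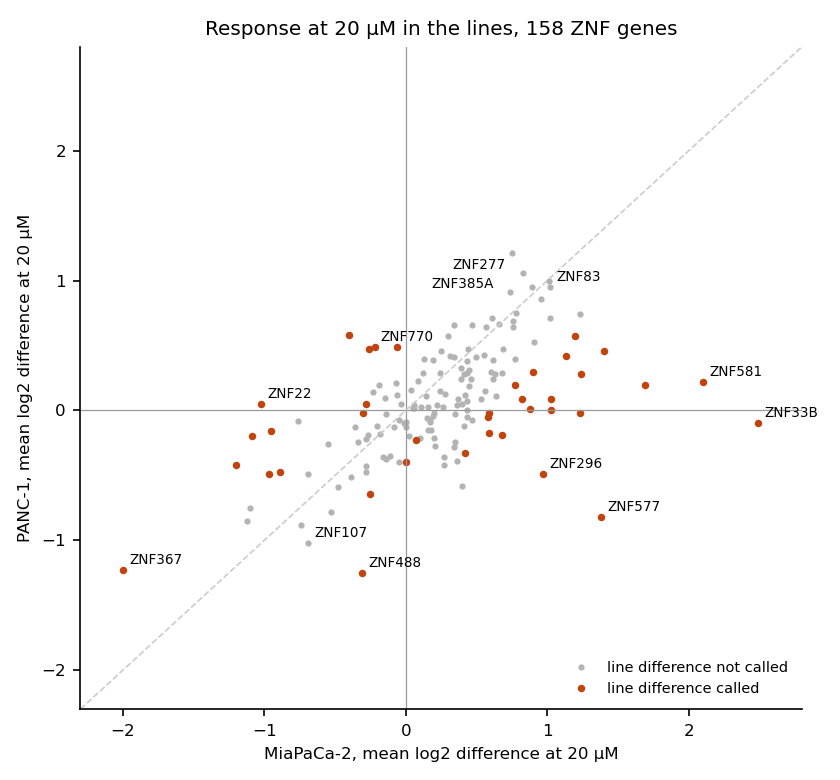
Mean log2 difference from control at 20 µM over the 3 statins, MiaPaCa-2 (x axis) against PANC-1 (y axis), for the 158 ZNF genes tested in both lines, with the dashed line where the responses are equal. Orange points are the 38 members whose line difference was called. ZNF33B and ZNF581 lie far to the right at PANC-1 values near 0, and ZNF367 lies at the lower left.

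In untreated cells, 47 members (27.8%) were higher in MiaPaCa-2, against 35.9% of all genes, and 36 (21.3%) were higher in PANC-1, against 28.7%. Without both PANC-1 libraries that stood apart these counts were 50 (36% of all genes in that setting) and 40 (29.4%). The move from 47 and 36 was not tested. ZNF300, ZNF426, ZNF488, ZNF512 and ZNF385A were higher in the MiaPaCa-2 controls, by 1.99, 1.70, 1.60, 1.40 and 1.29. ZNF365, ZNF90, ZNF826P, ZNF568 and ZNF695 were higher in PANC-1, with differences of -3.48, -2.85, -2.58, -2.06 and -2.03. ZNF90 was at 15.6 and 14.8 FPKM in the MiaPaCa-2 controls and at 163, 83.2 and 115 FPKM in those of PANC-1, with no overlap. ZNF365, ZNF695 and ZNF826P sat at the lowest listed value in most MiaPaCa-2 libraries, and ZNF300 in 14 of 21 PANC-1 libraries, so the size of their differences depends on the offset of 1. ZNF300 and ZNF426 were tested here through their level in MiaPaCa-2 alone, so a difference follows from the filter. The same holds for ZNF365, ZNF695 and ZNF826P, which passed the filter through their level in PANC-1 alone. The counts of 47 and 36 include such members. The PANC-1 control level of ZNF300 rests on 2.3 FPKM in the control library that stood apart.

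The members with known roles outside repression were taken as lists. Of the ribosome and translation members (3 of 3 in the table), ZNF593 and ZNF598 fell in MiaPaCa-2 at 2 µM and ZNF622 rose at 20 µM in both lines. ZNF598, the ubiquitin ligase of collided ribosomes, fell by 0.56 in MiaPaCa-2 at 2 µM, or -0.42 (adjusted p = 0.158) without control replicate 1. In PANC-1 it rose by 0.46 at 20 µM, or 0.31 (adjusted p = 0.121) without control replicate 3 and 0.26 (adjusted p = 0.162) without both libraries that stood apart. Of the mitosis and genome stability members (3 of 6), ZNF207 and ZNF367 fell at 20 µM in both lines. ZNF207, a kinetochore partner of BUB3, fell by 0.28 in MiaPaCa-2, where it was -0.22 (adjusted p = 0.0781) without control replicate 1, and by 0.47 in PANC-1. Of the activators (4 of 6 in the table), ZNF335 rose by 0.59 in MiaPaCa-2 at 20 µM. ZNF410, an activator of CHD4, fell by 0.48 in MiaPaCa-2 at 2 µM, or -0.39 (adjusted p = 0.131) without control replicate 1. It rose by 0.29 in PANC-1 at 20 µM, a call lost without any 1 of 6 libraries, with 0.16 (adjusted p = 0.296) without control replicate 3 and 0.12 (adjusted p = 0.389) without both libraries that stood apart.

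Of the corepressor and chromatin partners (7 of 13 in the table), 3 rose and 0 fell in MiaPaCa-2 at 20 µM (34.1% and 33.7% of all genes), and 1 rose and 1 fell in PANC-1 (30.8% and 31.1%), by limma with Benjamini-Hochberg adjustment. ZNF274, which recruits SETDB1 to the ends of ZNF genes themselves, was at 13.5 and 13.2 FPKM in the MiaPaCa-2 controls. At the high dose it was at 22.7, 25.9 and 17.9 FPKM with fluvastatin, 34.4 and 28.4 with lovastatin, and 53.5, 49.1 and 48.4 with simvastatin. All were above the controls, and simvastatin was the highest. ZNF274 rose by 1.23 (SE 0.18, adjusted p = 1.99e-05) in MiaPaCa-2, and in PANC-1 its difference was -0.02 (interval -0.4 to 0.35). The responses differed between the lines by 1.25 (SE 0.27, adjusted p = 0.000405). ZNF516 rose by 1.00 (adjusted p = 0.00281) in PANC-1 and 1.01 (adjusted p = 0.0344) in MiaPaCa-2, where it was 0.51 (adjusted p = 0.422) without MiaPaCa-2 control replicate 1 and 1.52 (adjusted p = 0.0214) without MiaPaCa-2 control replicate 2, and was also lost without any 1 of 4 treated libraries (0.85, adjusted p = 0.077, without lovastatin 20 µM replicate 1). ZNF451, a SUMO ligase, rose by 0.43 in MiaPaCa-2, and was at 0.30 (adjusted p = 0.211) without MiaPaCa-2 control replicate 2.

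ZNF217, an oncogene product that binds corepressor complexes, was at 55 and 54.5 FPKM in the MiaPaCa-2 controls, at 89.5 to 117 FPKM in the low-dose libraries and at 44.7 to 70.7 FPKM in the high-dose libraries. Only the low dose stood clear of the controls. It rose by 0.90 (SE 0.09, adjusted p = 3.33e-07) at 2 µM. In PANC-1 it fell by 0.40 (adjusted p = 0.00355) at 20 µM, which was -0.22 (adjusted p = 0.0607) without PANC-1 control replicate 3 and -0.25 (adjusted p = 0.0249) without both libraries that stood apart.

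Of the lipid and stress members (8 of 10 in the table), 3 rose and 1 fell in MiaPaCa-2 at 2 µM (23.9% and 27.1% of all genes), and 2 rose and 1 fell at 20 µM (34.1% and 33.7%). ZNF395, ZNF467 (0.49) and ZNF300 (0.85) rose at the low dose, and ZNF281 fell by 0.47. At 20 µM ZNF281 fell by 0.28, or -0.28 (adjusted p = 0.106) without MiaPaCa-2 control replicate 1 and -0.29 (adjusted p = 0.0979) without control replicate 2. Without MiaPaCa-2 control replicate 1, ZNF467 was at 0.54 (adjusted p = 0.0948), and at 0.43 (adjusted p = 0.183) without control replicate 2. Of the RNA and splicing members (4 of 6), ZNF385A and ZNF326 are described above, ZNF106 fell by 0.57 in MiaPaCa-2 at 2 µM, and ZNF346 was not called. ZNF106 was at -0.61 (adjusted p = 0.0829) without MiaPaCa-2 control replicate 1 and at -0.54 (adjusted p = 0.121) without control replicate 2. The retroelement repressors had 2 of 10 listed genes in the table, ZNF248 and ZNF425. ZNF248 rose by 0.44 in MiaPaCa-2 at 2 µM, or 0.23 (adjusted p = 0.32) without MiaPaCa-2 control replicate 2, and ZNF425 was not called.

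Of the KRAB corepressor list (12 of 19 genes in the table), 1 was higher and 7 lower in MiaPaCa-2 at 20 µM (34.1% and 33.7% of all genes), with a median log2 difference of -0.53. In PANC-1 at 20 µM 0 were higher and 11 lower (30.8% and 31.1%), also with a median of -0.53. At 2 µM the counts were 1 higher and 9 lower in MiaPaCa-2 (23.9% and 27.1%) and 0 higher and 2 lower in PANC-1 (4.34% and 2.00%). TRIM28 was at 739 and 706 FPKM in the MiaPaCa-2 controls and at 428 to 577 FPKM at 20 µM, and at 1160, 1230 and 870 FPKM in the PANC-1 controls and 458 to 564 FPKM at 20 µM. The treated libraries lay below the controls in both lines. TRIM28 fell by 0.58 (SE 0.05, adjusted p = 6.28e-08) in MiaPaCa-2 and by 1.08 (SE 0.08, adjusted p = 9.69e-10) in PANC-1 at 20 µM. Of the heterochromatin proteins, CBX3 fell by 1.15 in MiaPaCa-2 and 0.72 in PANC-1 at 20 µM, and CBX5 by 0.80 and 1.13.

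Of the other silencers of repeats (10 of 19 in the table), 1 was higher and 6 lower in MiaPaCa-2 at 20 µM (34.1% and 33.7% of all genes), with a median of -1.08, and 1 higher and 7 lower in PANC-1 (30.8% and 31.1%), with a median of -0.97. UHRF1, which guides maintenance DNA methylation, fell by 3.41 (SE 0.10) in MiaPaCa-2 and 2.03 (SE 0.11) in PANC-1. The methyltransferase DNMT1 fell by 2.26 and 1.18, and SUV39H1, a histone methyltransferase of heterochromatin, by 2.06 and 1.45. These lists were chosen with earlier results of these libraries known, and whether their fall bears on the ZNF genes was not tested.

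The related ZFP, ZKSCAN, ZSCAN and ZBTB genes, which also carry zinc fingers, were read beside the members. At 20 µM, 15 of 39 were higher and 6 lower in MiaPaCa-2 (34.1% and 33.7% of all genes), and 15 of 38 higher and 5 lower in PANC-1 (30.8% and 31.1%). Among the ZNF genes the counts were 67 and 22 of 165, and 41 and 20 of 162. Neighbouring members could differ: ZNF580 was at 0.09 and ZNF581 at 2.10 in MiaPaCa-2 at 20 µM, ZNF528 at 1.69 and ZNF534 at -1.09, and ZNF562 at 0.27 and ZNF846 at 1.40.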

How the data were processed

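Poly-A RNA of 42 labelled samples was sequenced, 3 for each of 14 groups. The authors deposited 1 table of log2 values for 8738 genes, per the file headers in FPKM, and FPKM was taken back as the power of 2 less 1. Per the submitters' processing notes, the tools were TopHat2 2.0.13, Cufflinks 1.1 and Cuffdiff, with the build hg19. Without counts the depth per library is unknown, so no counting interval is given, and each FPKM depends on the authors' transcript models. How the genes were chosen and whether libraries were scaled to each other is not stated.

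MiaPaCa-2 control replicate 3 equals 0.5 and 0.49 of the other control columns plus 0.01 of PANC-1 fluvastatin 20 µM replicate 2, on the deposited log2 scale. MiaPaCa-2 lovastatin 20 µM replicate 3 equals 0.45 and 0.48 of its replicates plus 0.07 of MiaPaCa-2 simvastatin 20 µM replicate 3. The largest residuals were 5.00e-09 and 4.99e-09, so neither entered the fits, and all columns were tried as an alternative.

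Values on log2(FPKM + 1) were fitted in limma 3.58.1 (R 4.3.3) with 1 mean per group and moderated variances with trend and robust settings. Each line was fitted alone, and both together for line differences and for the untreated lines. Genes with at least 1 FPKM in 3 libraries were tested, two-sided, with Benjamini-Hochberg adjustment over all genes tested and a threshold of 0.05. The script was tested on simulated data. Named genes were those with the largest changes called for all 3 statins with a control or treated level of 2 FPKM, role list members, the 5 highest in level, and the largest differences in each dose, pair and line contrast. The members, lists and tests were chosen with earlier results of these data known. Replicate numbers do not pair samples: over 52 same-numbered pairs in MiaPaCa-2 and 63 in PANC-1 the median correlation of deviations was 0.

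KRAB matches needed 9 of 23 conserved positions in GENCODE 29 translations, which use GRCh38, and no hg19 coordinate is printed. All 169 members matched by gene ID. Alternatives were another pseudocount (0.1), no filter, other scalings, a replicate block, fewer samples per fit, another variance model, and leaving out libraries.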

Additional observations from a re-analysis of the deposited data

Results flagged for a closer look

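The fitted response to a statin differed between the lines for 11 members at 2 µM and 4 at 20 µM. It did so for each of the 3 statins and by at least 1 on the log2 scale on average. The 11 include ZNF470 and ZNF300, which passed the filter through their level in MiaPaCa-2 alone. Most PANC-1 libraries held these genes at the lowest listed value, so their differences cannot show that the lines respond differently. Each value below is the MiaPaCa-2 response less the PANC-1 response, averaged over the statins. At 2 µM the difference was 1.89 for ZNF160, 2.28 for ZNF404, 2.00 for ZNF395, 1.93 for ZNF470, 2.53 for ZNF577, 2.40 for ZNF33B, 1.33 for ZNF511, 1.33 for ZNF581 and 1.42 for ZNF300. It was -1.19 for ZNF385A and -1.32 for ZNF593. At 20 µM it was 1.88 for ZNF581, 2.59 for ZNF33B, 1.47 for ZNF296 and -1.07 for ZNF22.

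Without both PANC-1 libraries that stood apart, the differences at 2 µM were 1.70 for ZNF160, 1.91 for ZNF404, 1.61 for ZNF395, 1.68 for ZNF470, 2.18 for ZNF577, 2.59 for ZNF33B, 1.25 for ZNF511, 1.25 for ZNF581, -1.05 for ZNF385A and -1.19 for ZNF593. At 20 µM they were 1.82 for ZNF581, 2.72 for ZNF33B, 1.28 for ZNF296 and -1.19 for ZNF22. ZNF470 and ZNF300 sat at the lowest listed value in 13 and 14 of 21 PANC-1 libraries and were not tested in that line alone. ZNF300 moved the most, from 1.42 to 0.86 at 2 µM. It was at 2.3 FPKM in PANC-1 control replicate 3 and at 0.00348 and 0.0266 FPKM in the other PANC-1 controls. All of these differences stayed below an adjusted p of 0.05 in limma in that setting, where the highest was 0.00613 for ZNF385A. For ZNF470 and ZNF300 such a p-value does not compare measured responses of both lines.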

How the results depend on the processing

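None of the calls of named genes changed direction under any setting. Quantile normalization, library medians set equal, a pseudocount of 0.1 and no filter moved no count of called ZNF genes by over 1.5 times. The counts below are of ZNF genes called, and those that moved were mostly small.

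Fitting the groups compared alone gave, in MiaPaCa-2, 14 lower with fluvastatin at 2 µM (22 in the report) and 9 for fluvastatin against lovastatin at 20 µM (16), and for the line difference in lovastatin at 20 µM 27 (41). In PANC-1 it gave 0 higher and 0 lower with fluvastatin at 2 µM, 0 lower with lovastatin, 0 higher and 0 lower with simvastatin, 1 for simvastatin against lovastatin at 2 µM, 27 higher with simvastatin at 20 µM (41), and 33 for simvastatin against lovastatin at 20 µM (57). With all 42 columns, MiaPaCa-2 had 29 lower with lovastatin at 2 µM (19), 1 for fluvastatin against simvastatin and 1 for simvastatin against lovastatin at 2 µM, 68 higher with lovastatin at 20 µM (42) and 35 for fluvastatin against lovastatin at 20 µM (16). Without the trend and robust settings, PANC-1 at 2 µM had 2 higher and 2 lower with fluvastatin, 2 lower with lovastatin, 5 lower with simvastatin, 1 higher on average and 1 for fluvastatin against lovastatin. With the replicate number as a block, PANC-1 had 1 for fluvastatin against lovastatin at 2 µM, and no other count moved by over 1.5 times, but the numbers do not pair the samples. Without both PANC-1 libraries that stood apart, chosen after seeing the data, PANC-1 had 2 higher and 2 lower with fluvastatin, 1 higher and 2 lower with lovastatin, 3 higher and 6 lower with simvastatin and 2 higher on average at 2 µM, and 27 higher with simvastatin at 20 µM.

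Leaving out 1 library at a time gave, in MiaPaCa-2 at 2 µM, 10 to 24 lower with fluvastatin, 23 to 36 higher and 10 to 20 lower with lovastatin, 12 to 21 lower with simvastatin, 12 to 27 lower on average, and 0 to 1 for each statin pair. At 20 µM it gave 14 to 19 lower with lovastatin, 14 to 19 lower with simvastatin, 43 to 69 higher and 13 to 23 lower on average, 7 to 15 for fluvastatin against lovastatin and 31 to 45 for simvastatin against lovastatin. In PANC-1 at 2 µM the ranges were 1 to 2 higher and 0 to 3 lower with fluvastatin, 0 to 1 and 0 to 2 with lovastatin, 0 to 3 and 0 to 5 with simvastatin, 0 to 1 and 1 to 5 on average, and 0 to 1 for fluvastatin against lovastatin. Fluvastatin against lovastatin at 20 µM ranged from 19 to 26. The line difference ranged from 25 to 41 for lovastatin at 2 µM, from 24 to 37 for lovastatin at 20 µM and from 25 to 46 on average at 20 µM. Without 1 MiaPaCa-2 control the lone other control is assumed to vary like the other groups. The causes of these moves were not tested. Calls of named genes that no longer passed, counted once for each setting, numbered 106 over the settings without 1 library, 11 for the groups compared alone, 5 without both PANC-1 libraries, and 3 or fewer under each other setting. The depth is unknown, so no counting error can be given.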
